A study of Sus scrofa with 48 samples.

Results

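UCP2 and UCP3 are uncoupling proteins, carriers of the inner mitochondrial membrane. Their transcripts were followed through gluteus medius muscle (GM), liver and kidney of 16 pigs by every array probe whose RefSeq accession belongs to either gene. These were 2 of the 43603 probes of the array, the UCP2 probe A_72_P165336 and the UCP3 probe A_72_P146406, so that each gene rested on 1 probe and agreement between probes of a gene could not be examined. Both genes were chosen by the liver signals of these same pigs, in which UCP3 differed between the lines. Liver differences between the lines, differences of the other tissues against liver and pig-by-pig correlations with liver values are therefore described without a test. Of the genes that could be named by accession, 1862 in all, these were 2. UCP1 was not measured by a probe that could be matched by accession. Array probes that carry Ensembl transcript names were not matched to genes here.

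The pigs were Swiss Large White F2 offspring of a feeding experiment over 3 generations. The F0 grandsires of the F2 E pigs received from weaning on a diet with additional methionine, choline, betaine, vitamins B6 and B12 and folate, whereas those of the F2 C pigs received the standard diet, and F1 and F2 animals of both lines received standard feed only. Each line held 8 F2 pigs, 4 barrows (castrated males) and 4 females, whose feed was withdrawn before slaughter and whose GM, liver and kidney were each hybridised to 1 array of 1 colour, giving 48 arrays. Litters and sires of these 16 pigs were not given in the sources used here, so p-values measure the spread between pigs and not between families. Pig numbers fell in a lower and an upper series of 4 F2 C and 4 F2 E pigs each, which the labels do not explain. Pigs are counted here from 1 to 8 within a line in the order of their numbers, so that pigs 1 to 4 form the lower and pigs 5 to 8 the upper series.

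Uncoupling proteins belong to the family of mitochondrial anion carriers. UCP1 lets protons re-enter the matrix of brown fat mitochondria so that fuel is burned for heat, and the pig is known to lack a functional UCP1. UCP3 is found above all in skeletal muscle and brown fat, where its transcript rises when fatty acids reach the cell, in fasting for example, under the control of the PPAR family of nuclear receptors. UCP2 is found in many tissues and is high in macrophages, lymphocytes and other immune cells, where it has been linked to the production of reactive oxygen species. In a tissue sample, a change in the share of a cell type and a change in transcript per cell cannot be told apart.

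Values below are log2 of the median pixel signal of a spot after quantile normalization, and 1 unit is a 2-fold difference. Line comparisons used values normalized within a tissue, and tissue comparisons used values normalized over all 48 arrays. GM arrays were the dimmest, with a median spot signal of 48 to 88.5, against 88 to 167 on liver arrays and 48 to 240.5 on kidney arrays. The 2 dimmest kidney arrays, those of F2 E pigs 1 and 3, stood at 48 where the next stood at 100. The UCP2 spot was well above background on 48 of 48 arrays and the UCP3 spot on 45, and neither was saturated or marked as an outlier on any array. Each tissue carried the markers of its label, and 20 of 20 skeletal muscle probes in GM, 13 of 13 hepatocyte probes in liver and 6 of 6 kidney epithelium probes in kidney were well above background on 50% or more of the arrays. Such counts do not part the tissues, since 11 of the 13 hepatocyte probes passed in GM and 12 in kidney, in either line. The summed levels did. Hepatocyte signal was 3024350 to 3631760 in liver, at most 95598 in kidney and at most 20092 in GM. Slides carried 4 arrays. In GM and kidney each slide held pigs of 1 line, so that line and slide cannot be told apart there, whereas 2 liver slides held both lines.

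UCP3 signal was by far highest in GM. Over the 16 pigs the level normalized over 48 arrays was 16.06 ± 0.57 (SD) in GM, 10.20 ± 2.31 in kidney and 7.53 ± 1.78 in liver. All 16 pigs had more UCP3 signal in GM than in kidney, by between 3.20 and 9.21, and more in GM than in liver, by between 5.23 and 10.48. As a description, the mean difference of GM over liver was 8.53, 7.07 in F2 C and 9.98 in F2 E, where 3 of 8 liver spots were not well above background. After background correction and scaling to the 75th percentile the mean difference over all pigs was 9.80. The mean difference of GM over kidney was 5.85 (SE 0.444, 57.8-fold, adjusted p 1.14e-16), 7.03 or 130-fold in F2 C and 4.68 or 25.6-fold in F2 E. For GM against kidney the exact sign-flip test over 16 pigs gave 3.05e-05, the smallest p it can give. Of the 34501 probes tested over the 48 arrays, 70.7% differed between GM and liver at an adjusted p below 0.05. Between GM and kidney 75.2% differed, and between kidney and liver 70.1%, so that a call alone says little here. The size of the UCP3 difference of GM against kidney ranked 474th among all probes. No rank is given for GM against liver, since F2 E liver spots lay near background.

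Kidney and liver are described by line and without a test, because the liver values chose the gene. Over all 16 pigs the mean UCP3 difference of kidney over liver was 2.68, and 11 of 16 pigs had the higher signal in kidney. In F2 E pigs kidney exceeded liver in 8 of 8 animals, by 1.60 to 7.04 with a mean of 5.31 ± 1.73 (SD). In F2 C pigs the difference of kidney over liver ranged from -3.98 to 4.64 with a mean of 0.05 ± 2.68, and kidney was the higher tissue in 3 of 8 animals.

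**Figure D1:**
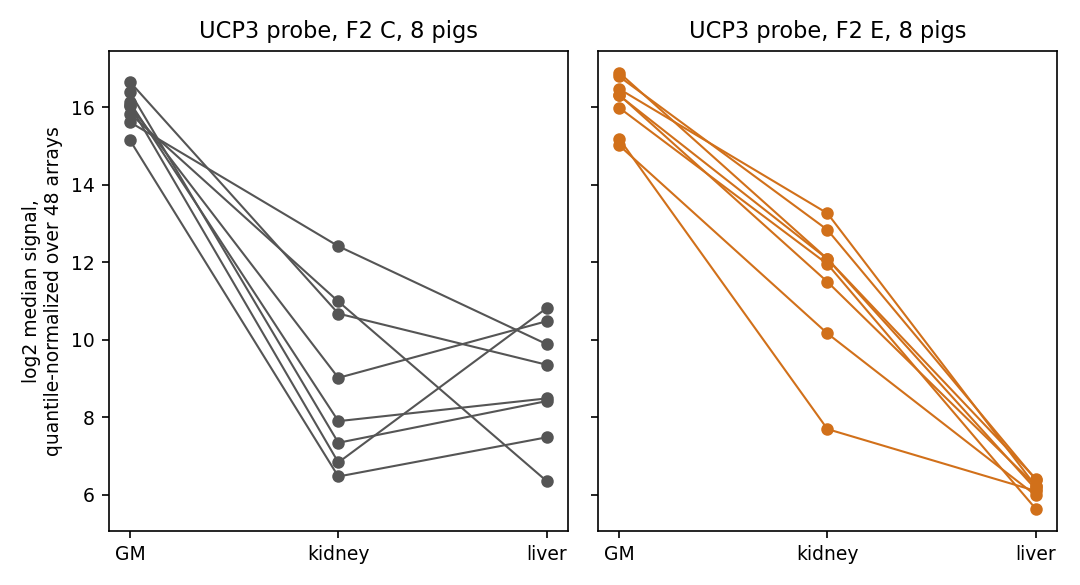
UCP3 signal (log2, quantile-normalized over 48 arrays, vertical axis) in GM, kidney and liver of each of the 8 F2 C pigs (left) and 8 F2 E pigs (right), with 1 line per pig. GM is the highest tissue in all 16 pigs, and all 8 F2 E pigs are lower in liver than in kidney while 5 of 8 F2 C pigs are higher.

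In GM the UCP3 signal did not separate the lines. F2 C pigs lay between 14.72 and 16.35 with a median of 15.69, and F2 E pigs between 14.58 and 16.62 with a median of 15.98. The lines overlapped over nearly their whole range, and the lowest pigs of both lines were close together. The mean was 15.62 ± 0.50 (SD, n = 8) in F2 C and 15.78 ± 0.75 in F2 E. The difference of 0.15 (SE 0.285) had a 95% interval from -0.44 to 0.75 and was within the spread between pigs (limma adjusted p 0.824, exact permutation p 0.631, two-sided). It was -0.073 in the lower and 0.38 in the upper pig-number series, and 0.03 to 0.32 with 1 pig left out. Of the 25625 probes tested in GM 0.761% were called between the lines, and neither UCP probe was among them.

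In liver the UCP3 probe showed the difference by which it was chosen. The F2 C signals were 6.56, 7.65, 8.57, 8.64, 9.51, 10.05, 10.64 and 10.98, and the F2 E signals ran from 5.90 over a median of 6.40 to 6.62. Thus 7 of 8 F2 C livers lay above every F2 E liver, and the exception was the female F2 C pig 3 at 6.56. Before normalization the spot read 125.5 to 3452 in F2 C and 57 to 150 in F2 E, over a local background of 20 to 42 in the latter, and on 3 of the 8 F2 E arrays it was not well above background. The mean was 9.08 ± 1.51 (SD, n = 8) in F2 C and 6.37 ± 0.23 in F2 E, a difference of -2.71. The F2 E spots lay near background, and after background correction with scaling to the 75th percentile it was -3.86. Over the liver arrays 0.0937% of 28823 probes were called between the lines, a figure from which nothing is read for UCP3 because it was chosen on this contrast.

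The liver difference kept its sign in each subset of pigs, with unequal size. It was -2.40 in the lower and -3.02 in the upper pig-number series, and -3.25 in barrows and -2.17 in females. On the first slide that held both lines, with 2 barrows of each, it was -3.75, and on the second, with 2 females of each, it was -1.04, and F2 C pig 3 was one of these. The spread of the F2 C livers was larger than that of 99.7% of the 28823 probes present in liver, whereas the spread of the F2 E livers exceeded 23.5% of them, at a signal close to background. Of 20 skeletal muscle marker probes 7 in F2 C livers and 5 in F2 E livers were well above background on 50% or more of the arrays, and 4 and 12 on none. The summed skeletal muscle signal (13 genes, 20 probes) was 1271 to 1603 in F2 C livers and 1163 to 1851 in F2 E livers, against 6144270 to 6950850 in GM, and the median correlation of the 7 muscle probes measured on all 16 liver arrays with UCP3 was 0.01. The summed hepatocyte signal (9 genes, 13 probes) was 3131620 to 3631760 in F2 C and 3024350 to 3559160 in F2 E, and the adipocyte signal (9 genes, 11 probes) was 2304 to 3104 in F2 C and 2613 to 3876 in F2 E, all overlapping.

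**Figure D2:**
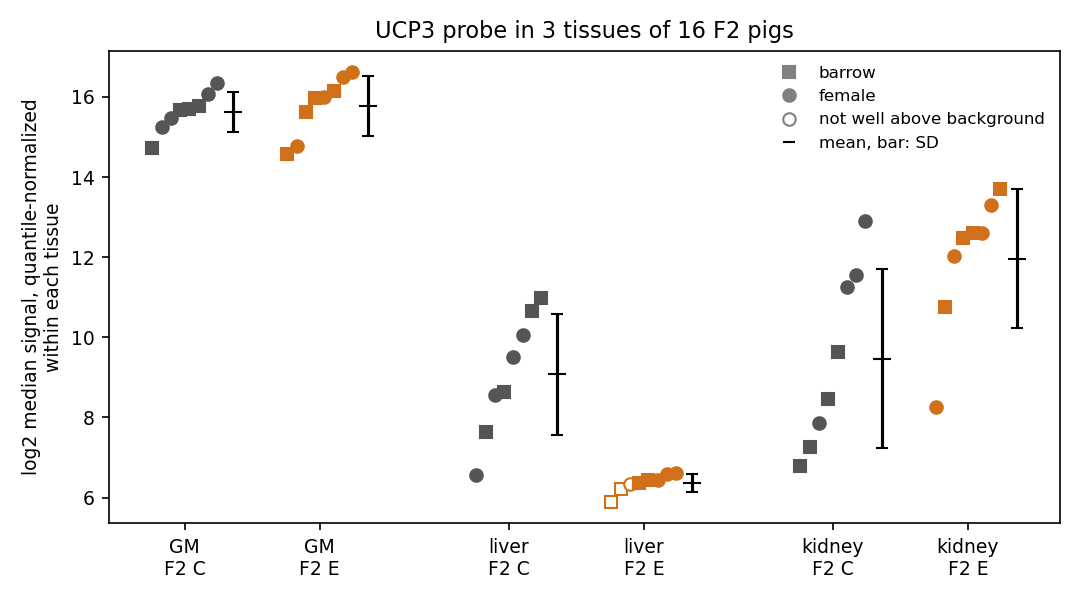
UCP3 signal (log2, quantile-normalized within each tissue, vertical axis) of each pig by tissue and line, with squares for barrows, circles for females, open symbols where the spot was not well above background, and the mean with its SD. Lines overlap in GM, 7 of 8 F2 C livers lie above all F2 E livers, and 7 of 8 F2 E kidneys lie above the F2 C median.

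In kidney the UCP3 difference pointed the other way, higher in F2 E. F2 C kidneys were at 6.79, 7.25, 7.85, 8.47, 9.64, 11.26, 11.55 and 12.91, and F2 E kidneys at 8.25, 10.77, 12.03, 12.47, 12.60, 12.61, 13.30 and 13.69. Of the F2 E pigs 7 of 8 lay above the F2 C median of 9.06, and the lines overlapped, since 3 F2 C females were at 11.26 or above and 2 F2 E pigs, 1 female and 1 barrow, were below that. The mean was 9.47 ± 2.24 (SD, n = 8) in F2 C and 11.97 ± 1.74 in F2 E. The difference was 2.50 (SE 0.902, 95% interval 0.60 to 4.40, 5.66-fold). Taken alone it had a two-sided exact permutation p of 0.0286 among the 12870 divisions of the pigs and a limma unadjusted p of 0.0129, but it did not pass adjustment over the 33664 probes tested (limma adjusted p 1.00). Only 0.0119% of those probes, 4 in all, were called between the lines in kidney.

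The kidney difference was positive in each subset but varied in size. It was 3.36 in the lower and 1.64 in the upper pig-number series. In barrows, 4 of each line, it was 4.34, with F2 C barrows at 6.79 to 9.64 and F2 E barrows at 10.77 to 13.69. The lowest F2 E barrow, pig 1, was on 1 of the 2 dimmest kidney arrays. How many other probes parted the barrows in this way was not counted. In females it was 0.66, with F2 C females at 7.85 to 12.91 and F2 E females at 8.25 to 13.30. The interaction of line and sex was 3.69 (SE 1.59, unadjusted p 0.0347) and did not pass adjustment over all probes (limma adjusted p 0.906). That interaction called 0% of 33664 probes in kidney and 0% of 25594 in GM with limma, where 890 and 884 had an unadjusted p below 0.05. Without the 2 dimmest kidney arrays, both of F2 E, the UCP3 line difference was 2.71 (adjusted p 0.758). With slide as a random block its unadjusted p was 0.0585.

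Marker sums of the kidneys overlapped between the lines. Summed kidney epithelium signal (5 genes, 6 probes) was 75410 to 112356 in F2 C and 69047 to 113406 in F2 E. Muscle markers summed to 1402 to 2163 (median 1642) in F2 C and 1664 to 2220 (median 1878) in F2 E kidneys. All 12 muscle probes tested were higher in F2 E, with a median difference of 0.07 against -0.01 over all probes, and 0 were called by limma or had an unadjusted p below 0.05. The 12 muscle probes measured on all 16 arrays had a median correlation of -0.09 with UCP3. Hepatocyte markers summed to 18137 to 33732 (median 23888) in F2 C and 21300 to 95598 (median 39068) in F2 E. Of 12 hepatocyte probes tested 7 were higher and 5 lower in F2 E. By limma 0 were called and 2 had an unadjusted p below 0.05, against 3.84% of all probes. Adipocyte markers summed to 6570 to 9127 in F2 C and 5715 to 10438 in F2 E. Their part in the UCP3 values was not tested.

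Set against GM, where the line difference over 48 arrays was 0.14, the UCP3 line difference in kidney was larger by 2.35 (SE 0.889, unadjusted p 0.0111). After adjustment over the 34501 probes, of which 0.0435% were called in this comparison, it was not past the threshold (limma adjusted p 0.689). For UCP2 the same comparison gave 0.30 (SE 0.261, adjusted p 0.995).

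UCP3 was among the most variable transcripts of kidney even within a line. The SD pooled within lines was 2.00 in kidney, larger than that of 99.9% of the 33664 probes present there, whose median was 0.34. It was 1.08 in liver (larger than 99.3%) and 0.63 in GM (larger than 95.5%). For UCP2 the pooled SD was 0.48 in kidney, 0.31 in liver and 0.31 in GM, larger than 75.4%, 54.1% and 56.7% of the probes of those tissues. Over the 8 F2 C pigs UCP3 in liver and in kidney had, as a description, r = 0.0011 (rho 0.02), and r = 0.76 without the 2 pigs farthest from the liver median. F2 C pig 2 had the highest liver value of all pigs, 10.98, and the second lowest kidney value, 7.25. F2 C pig 3 had the lowest F2 C liver value, 6.56, and one of the 3 high F2 C kidney values, 11.55. F2 C pig 7 was high in both tissues, at 10.05 and 12.91, and pig 6 was low in both, at 7.65 and 6.79.

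UCP2, the widely expressed relative, lay at similar levels in the 3 tissues. Normalized over 48 arrays, its signal was 10.02 ± 0.53 (SD, n = 16) in kidney, 9.74 ± 0.29 in liver and 9.26 ± 0.30 in GM. GM was lowest, by -0.76 against kidney (SE 0.130, adjusted p 1.08e-06, lower in 16 of 16 pigs, exact sign-flip p 3.05e-05). As a description, the difference of GM against liver was -0.48, with GM lower in 13 of 16 pigs. Kidney and liver, neighbours in this order, differed by 0.28, also as a description, with the higher signal in kidney in 11 of 16 pigs. The kidney and liver difference was 0.22 to 0.39 with 1 pig left out, and 0.73 with normalization within each tissue. Normalization within each tissue or scaling to the 75th percentile brought the median tissue difference of all probes to values between -0.80 and 0.60. Relative to that median, UCP2 was lower in GM than in liver by values from -0.74 to -0.43 and lower than in kidney by values from -1.34 to -0.67 over the settings tried, and higher in kidney than in liver by 0.22 to 0.63.

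**Figure D3:**
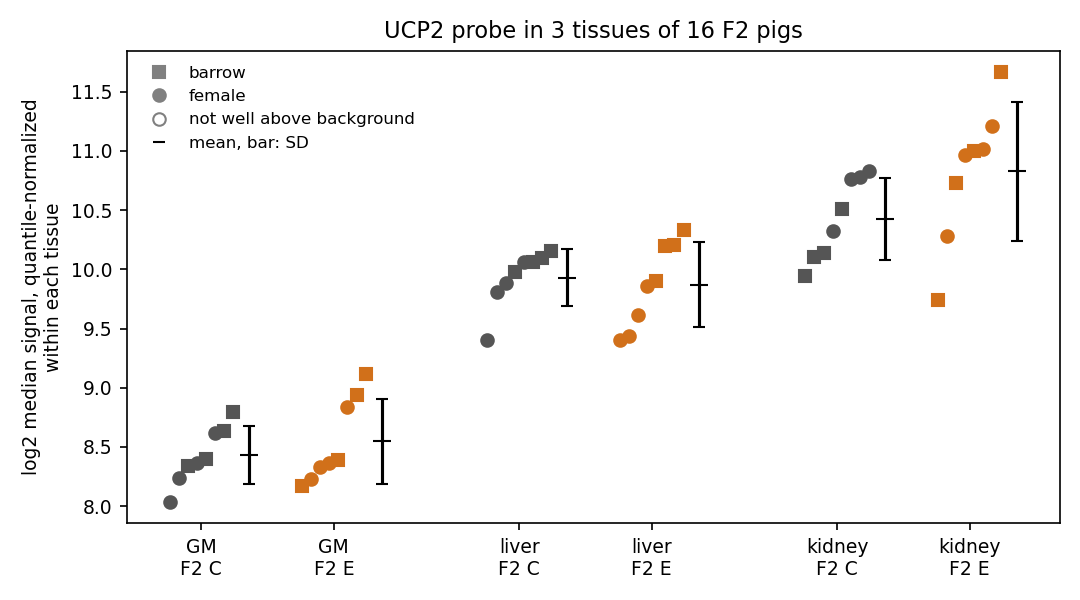
UCP2 signal (log2, quantile-normalized within each tissue, vertical axis) of each pig by tissue and line, with squares for barrows, circles for females and the mean with its SD. The lines overlap in each of the 3 tissues, and liver barrows, at 9.90 to 10.33, lie mostly above liver females, at 9.40 to 10.06. Levels of different tissues cannot be compared on this scale.

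UCP2 overlapped between the lines in each tissue. In GM F2 C pigs ran from 8.04 over a median of 8.38 to 8.80 and F2 E pigs from 8.17 over 8.38 to 9.11. The lines overlapped, and the 3 pigs above all F2 C pigs were of the upper series. The difference was 0.12 (SE 0.150, 95% interval -0.20 to 0.43, adjusted p 0.727, exact permutation p 0.447). It was -0.20 in the lower and 0.44 in the upper pig-number series, and 0.04 to 0.17 with 1 pig left out. In liver F2 C pigs ran from 9.41 over 10.02 to 10.15 and F2 E pigs from 9.40 over 9.88 to 10.33, with means of 9.93 ± 0.24 and 9.87 ± 0.36 (SD, n = 8), a difference of -0.06 that is given as a description. In kidney F2 C pigs ran from 9.95 over 10.42 to 10.83 and F2 E pigs from 9.74 over 10.98 to 11.66. Of the F2 E kidneys 5 lay above all F2 C kidneys and 1, the dim array of pig 1, below all of them. The kidney difference was 0.40 (SE 0.226, 95% interval -0.074 to 0.88, adjusted p 1.00, exact permutation p 0.117).

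Between barrows and females the smallest p was that of UCP2 in liver. Liver barrows ran from 9.90 over 10.12 to 10.33 and liver females from 9.40 over 9.71 to 10.06. Barrows were higher in both lines, at means of 10.07 against 9.79 in F2 C and 10.16 against 9.58 in F2 E. The difference of 0.43 (SE 0.112, 95% interval 0.19 to 0.67) had an unadjusted p of 0.00128 and an adjusted p of 0.175, where 0.118% of the 28816 liver probes tested were called between the sexes. When the median signal was scaled to the 75th percentile instead, the difference was 0.45 and passed (adjusted p 0.0276). In the lower series the sexes lay on different liver slides, barrows on the first and females on the second. The other sex differences were 0.22 for UCP2 and -0.35 for UCP3 in GM, -0.29 for UCP2 and -1.01 for UCP3 in kidney, and 0.27 for UCP3 in liver, with adjusted p from 0.834 to 1.00. Between the sexes 0.121% of GM probes and 0.0921% of kidney probes were called.

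The 2 genes and the 3 tissues were then compared pig by pig within a line, in a family of 18 correlations over 8 pigs each. Adjustment ran over all 18, pairs with a liver value included, and no correlation without a liver value passed it. Correlations with a liver value are given as a description. The correlation with the smallest p of Pearson's r was that of UCP3 in GM with UCP3 in kidney of F2 E pigs (r = 0.81, exact permutation p 0.0141, adjusted p 0.254, rho = 0.81, exact p 0.0218, adjusted 0.196). F2 E pigs 1 and 8 were the 2 lowest in both tissues, and without the 2 pigs farthest from the GM median r was 0.38, so the relation rests on them. UCP3 in GM and in liver of F2 E pigs had rho = 0.90 and r = 0.59, and without the 2 farthest pigs r was 0.90. These liver signals lay close to background, and only 5 of 8 spots were well above it. In F2 C pigs UCP3 in GM and in kidney had r = 0.14 (exact permutation p 0.75, adjusted p 0.87, rho -0.024), and -0.86 without the 2 farthest pigs. UCP3 in GM and in liver of F2 C pigs had r = 0.29 (rho 0.19), and -0.04 without the 2 farthest pigs.

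UCP2 and UCP3 were also set against each other within a tissue. Over all 16 pigs r was 0.63 in kidney, 0.26 in liver and 0.27 in GM, as a description. Within lines it was, in kidney, 0.59 in F2 C (exact permutation p 0.121, adjusted p 0.447, rho 0.57) and 0.57 in F2 E (exact permutation p 0.153, adjusted p 0.459, rho 0.24), where r turned to -0.62 without the 2 F2 E pigs farthest from the median UCP2. In liver, as a description, r was 0.69 in F2 C (rho 0.57) and 0.10 without the 2 pigs farthest from the median UCP2. In F2 E livers r was -0.69 (rho -0.69), over UCP3 signals close to background. In GM r was -0.25 in F2 C (exact permutation p 0.555, adjusted p 0.774, rho -0.33), turning to 0.13 without the 2 farthest pigs, and 0.49 in F2 E (exact permutation p 0.216, adjusted p 0.555, rho 0.38). In the reference gene table of assembly Sscrofa11.1 the 2 genes lie on chromosome 9 with 1 gene between them.

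The transcripts most like each probe over the 16 pigs of a tissue are given as a description, since all probes of an array share its RNA and its brightness. Sex and slide were not subtracted. Candidates were the 2020 GM, 2074 liver and 2342 kidney probes that had a gene symbol and a value on all 16 arrays. In liver UCP2 ran with CASP1 (r = 0.94), the protease that matures interleukin 1 beta, with GBP1 (0.89), an interferon-induced GTPase, LY86 (0.88), a partner of a Toll-like receptor relative on immune cells, PSMB9 (0.84), a subunit of the immunoproteasome, and PECAM1 (0.83), an adhesion molecule of endothelium and leukocytes. In GM UCP2 ran with TYROBP (0.90) and FCER1G (0.80), signalling adaptors of myeloid cells, with ZNF217 (0.85), a zinc finger protein, RPL35 (0.84), a ribosomal protein, and CST3 (0.80), a secreted protease inhibitor. In kidney it ran less closely with SLC23A2 (0.72), a vitamin C transporter, NR6A1 (0.70), an orphan nuclear receptor, TTR (0.70), a carrier of thyroxine, F10 (0.70), a coagulation factor, and SPAG5 (0.70), a protein of the mitotic spindle.

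In liver most markers of macrophages and lymphocytes ran with UCP2 from pig to pig. With each line's mean subtracted, 11 of 18 marker probes (13 genes) had r above 0.5 with UCP2 in liver and the median was 0.59, where 11.3% of all 28278 probes had r above 0.5 and the median was 0.05. Among them were CD3D (0.81) and CD2 (0.73) of T cells, CD79A (0.64) of B cells, and TYROBP (0.81) of myeloid cells. The CD3D probe was well above background on 6 and the CD79A probe on 10 of 16 liver arrays. The 7 probes below 0.5 were 3 of the macrophage receptor CD163 (0.15 to 0.36), 1 each of CD14 (0.46) and AIF1 (0.11) of monocytes and macrophages, LYZ (0.28), lysozyme, and CD8A (0.20) of cytotoxic T cells. Over 16 pigs with the lines as they are, GM had 5 of 13 probes above 0.5 with a median of 0.33, against 7.13% of all probes, and kidney had 1 of 19 with a median of 0.14, against 1.71%. For UCP3 0 of 18 liver, 0 of 13 GM and 0 of 19 kidney probes of this list did so, against 2.59% and 1.42% of all liver and GM probes and 369 of the 33503 kidney probes. The summed macrophage and lymphocyte signal (13 genes, 20 probes) was 65921 to 90788 in F2 C livers and 69177 to 106998 in F2 E livers, and its part in the UCP2 values was not tested. Liver UCP2 was higher in barrows, by 0.43. The livers lowest in UCP2, F2 C pig 3 (9.41) and F2 E pigs 3 (9.40) and 4 (9.44), were of females on the second liver slide. What sex and slide contribute to these correlations was not tested.

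**Figure D4:**
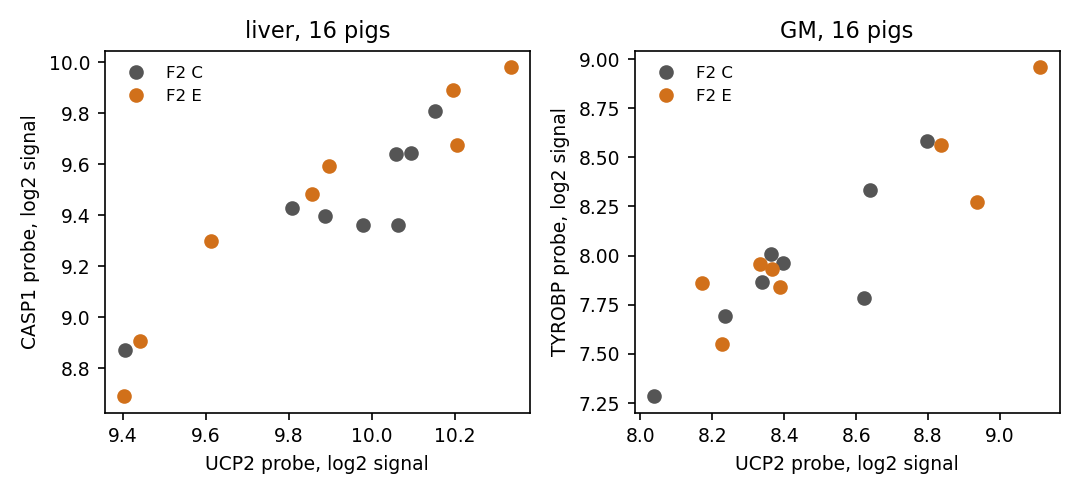
UCP2 signal (horizontal axis) against that of CASP1 in liver (left) and TYROBP in GM (right), both log2 and quantile-normalized within the tissue, with 1 point per pig and colours for the lines. The points rise together, with r of 0.94 in liver and 0.90 in GM over 16 pigs, and the lines are mixed. The livers lowest in both genes, of F2 C pig 3 and F2 E pigs 3 and 4, are of females on the same slide.

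For UCP3 the highest likeness in GM and liver was lower than for UCP2. In GM it was most like both probes of FBXO32 (r = 0.65 and 0.64), the muscle ubiquitin ligase atrogin-1 that rises in fasting, followed by SLC11A1 (0.61), a metal transporter of macrophages, IKBKG (0.60), a subunit of the kinase upstream of NF-kappa-B, and IL18 (0.59), a cytokine. In liver the 5 most like probes were NLN (0.75), a peptidase, LOC641352 (0.70), TDH (0.70), threonine dehydrogenase, GALP (0.69), a galanin-like peptide, and DCN (0.68), a matrix proteoglycan. All 5 had higher means in F2 C than in F2 E, in the direction by which UCP3 was chosen. With each line's mean subtracted none of these led, and the 5 highest were EIF4A1 (0.65) of translation initiation, SRSF6 (0.61) of splicing, CRP (0.60), the acute phase protein, RHBG (0.59), an ammonia transporter, and SLA-7 (0.58) of the leukocyte antigen complex. This ranking rests mainly on the F2 C livers, since the F2 E livers hardly vary.

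In kidney the transcripts most like UCP3 included genes of fatty acid use once line means were subtracted. Among the 5 most like probes were RPS3 (r = 0.71), a ribosomal protein, DBF4 (0.65) of DNA replication, UCP2 (0.63) and DHRS4 (0.63), a retinal reductase of peroxisomes. With each line's mean subtracted, a ranking added after the values were seen, the 5 were CYP24A1 (0.79), the vitamin D 24-hydroxylase, PLIN1 (0.71), a lipid droplet coat protein, CPT1A (0.70 and 0.69 for 2 probes), which admits long-chain fatty acids to mitochondria, and PNPLA3 (0.69), a lipase. With the lines as they are r was 0.43 for CYP24A1, 0.31 for PLIN1, and 0.55 and 0.53 for CPT1A. PLIN1 was well above background on 11 of 16 kidney arrays. Kidney CPT1A (probe A_72_P403023) ran from 14.84 over a median of 16.04 to 16.31 in F2 C and from 14.75 over 16.01 to 16.50 in F2 E. The pigs lowest in UCP3 within each line, F2 C pig 6 and F2 E pig 8, were also lowest in CPT1A within their line, whereas F2 C pig 2 had little UCP3 and the most CPT1A of its line.

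**Figure D5:**
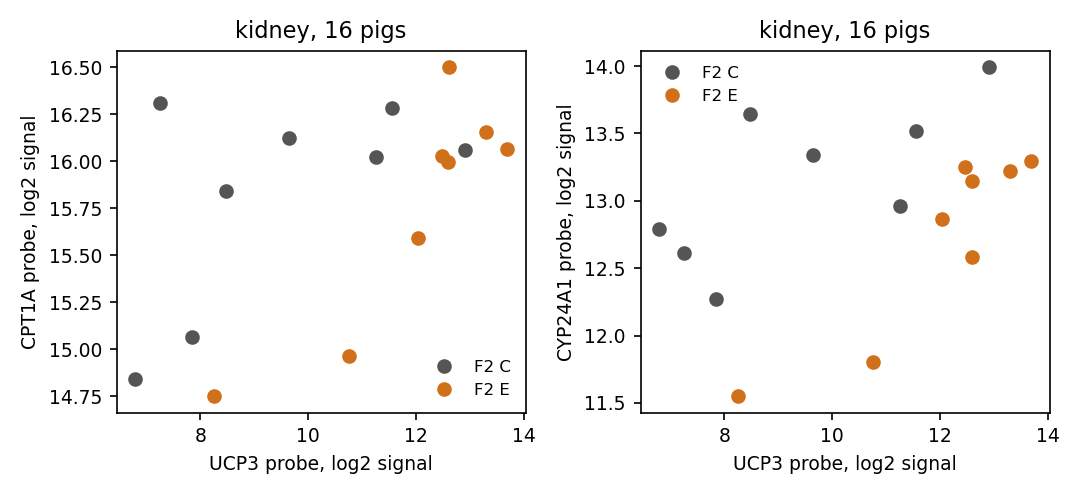
Kidney UCP3 signal (horizontal axis) against that of CPT1A (left) and CYP24A1 (right), both log2 and quantile-normalized within kidney, with 1 point per pig and colours for the lines. With each line's mean subtracted r is 0.70 for CPT1A and 0.79 for CYP24A1, and the 2 F2 E pigs lowest in UCP3 are the 2 lowest of the F2 E pigs in both genes.

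The PPAR-responsive fatty acid genes were a wider list of this kind. It held 27 probes of 16 genes, all present in kidney. Their median r with kidney UCP3 was 0.36, against -0.01 over all 33503 probes, and 5 had r above 0.5, where 369 of all probes did. With each line's mean subtracted the median was 0.40 and 10 of 27 probes passed 0.5, where 1.22% of all probes did. Among these 10 were 2 probes of CPT1A, 2 of HADHA (0.60 and 0.53), a subunit of the mitochondrial trifunctional protein, and 1 each of ANGPTL4 (0.66), an inhibitor of lipoprotein lipase, PLIN2 (0.65), a lipid droplet protein, CPT1B (0.58), the muscle form of CPT1, and PDK4 (0.50), the kinase that shuts off pyruvate dehydrogenase. LPL stood against them at -0.32, PPARGC1A, a coactivator of the PPAR receptors, at -0.12, ACADM, a mitochondrial acyl-CoA dehydrogenase, at -0.018, CD36, the fatty acid transporter, at -0.062 and 0.03, and the receptors PPARD and PPARG at 0.01 each. Probes of one gene share their target, and correlations of different probes share the 16 kidneys. Without the 2 dimmest kidney arrays 12 of 27 probes passed 0.5, with a median of 0.45, where 4.00% of all probes did. With line means subtracted, 0 of 22 liver probes (1.41% of all) and 1 of 25 GM probes (1.71% of all) of the list passed 0.5 with UCP3. For UCP2 in kidney it was 2 of 27 (3.44% of all), with a median of 0.26 against 0.03 over all probes.

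Between the lines no probe of this list was called in any tissue. In kidney 16 of 27 probes were higher and 11 lower in F2 E, with a median difference of 0.05 against -0.01 over all probes, 0 were called by limma and 0 had an unadjusted p below 0.05, a level that 3.84% of all kidney probes reached. In liver 14 of 26 were higher and 12 lower (median 0.02, 0 called, 5 with an unadjusted p below 0.05 against 8.32% of all probes). In GM 9 of 25 were higher and 16 lower (median -0.03, 0 called, 2 with an unadjusted p below 0.05 against 16.1%). Between tissues CPT1B was higher in GM than in liver by 3.42 to 3.53 over its 3 probes, and CPT1A was lower by -3.64 and -3.57 for the 2 probes present in both tissues, with adjusted p of at most 3.69e-18. In that comparison 13 of the 27 probes were called higher in GM and 12 lower, where 70.7% of all probes were called.

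Of the other mitochondrial carriers 3 genes could be measured, by 4 probes. SLC25A3, the phosphate carrier, was higher in GM than in liver by 1.68 and was higher in GM than in kidney as well. SLC25A25, an ATP-Mg and phosphate carrier, was higher in GM by 0.47 against liver and by 2.52 against kidney. The 2 probes of SLC25A6, an ADP/ATP translocase, were lower in GM by -0.43 and -0.47 against liver and by -0.63 and -1.96 against kidney. All 8 of these differences passed adjustment, as did 70.7% of all probes for GM against liver and 75.2% for GM against kidney. Between the lines 0 of the 4 probes were called in any tissue by limma, and 1 in liver had an unadjusted p below 0.05, where 0.761%, 0.0937% and 0.0119% of all probes were called in GM, liver and kidney and 8.32% of liver probes had such a p.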

How the data were processed

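RNA of GM, liver and kidney was labelled with 1 dye and hybridised to Agilent porcine arrays. The authors quantified the scans with Agilent Feature Extraction (version 10.5.1.1 in the file headers) and deposited 1 file per array with spot intensity values, not normalized between arrays, which were used here. Per-array log2 signals and comparison columns (log2 ratios, p-values, false discovery rates) in 3 further tables, 48 columns of per-sample values in all, were not used.

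The members and lists were chosen with earlier results of these data known. The median signal was put on the log2 scale and quantile-normalized over non-control spots, spots marked as outliers were set to missing, and spots of a probe were averaged. A probe was tested when 50% or more of the arrays in either group read above 25 and well above background, and each group had 2 arrays or more. Differences were tested with lmFit and eBayes of limma 3.58.1 in R 4.3.3, with Benjamini-Hochberg adjustment over all probes tested and a threshold of 0.05. In tissue contrasts pig was a random block, with a correlation of 0.0301. Line differences were also tested by exact permutation (smallest p 0.000155), tissue differences by exact sign-flips and correlations over all 40320 pairings. Of the 43603 probes 2628 were named through RefSeq accessions. Code was tested on simulated data. Named genes were the members, the 5 probes most like each, list genes, and the 5 nearest genes with a named probe on each side of the pair.

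Precision is limited by the number of arrays. Replicate numbers in the labels do not mark shared animals across lines. Sequences of probes or proteins were not analysed here. One gene of the lists is not reported here by name. Alternatives were other scalings and background corrections, presence filters, treatment of marked spots, covariates, blocks, the methods' t-test and each pig left out.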

Additional observations from a re-analysis of the deposited data

Results flagged for a closer look

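The UCP2 signal of 1 liver stood apart from its group. In the 8 F2 C livers the lowest, that of the female pig 3 at 9.41, was separated from the next by a gap that is 0.541 of the group's range, above Dixon's 95% critical value for 8 samples. The same pig had the lowest UCP3 signal of the F2 C livers, 6.56. Chance passes this limit in about 1 of 20 groups, and 12 groups of tissue, line and gene were examined. The cause was not tested.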

How the results depend on the processing

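The UCP3 difference between the lines in liver, a description, was -2.20 to -3.86 over the settings other than single slides, with -3.86 after background correction and scaling to the 75th percentile and -1.04 within liver slide 2, and -3.09 to -2.40 with 1 pig left out. The UCP3 kidney difference was 1.64 to 3.36 over 17 settings (adjusted p 0.251 to 1.00) and 2.11 to 3.03 with 1 pig left out. Within the lower pig-number series the GM differences turned to -0.20 for UCP2 and -0.073 for UCP3. The UCP2 difference of kidney over liver, a description, was 0.73 with normalization within each tissue, a scale on which tissue levels cannot be compared. It was 0.28 with probes well above background on every array, 0.26 with normexp on the median signal and 0.22 to 0.39 with 1 pig left out. The sex difference of UCP2 in liver passed after scaling to the 75th percentile (0.45), and that of UCP3 in liver then was -0.11, and -0.10 to 0.51 with 1 pig left out. The cause was not tested. The UCP2 difference in liver, a description near 0, was -0.19 to 0.20 over settings. The UCP3 and UCP2 contrasts of GM with kidney kept their direction and call in all settings run and with each pig left out. Those of GM with liver, a description, kept their direction. UCP3 in liver could not be had with probes well above background on every array.

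With a replicate block the UCP3 kidney difference stayed at 2.50 (unadjusted p 0.0461, adjusted p 1.00), and the block changed no call of either probe. Same-numbered samples were different pigs, and deviations correlated above 0.1 in 2 of 8 pairs of GM samples, 6 of liver and 3 of kidney, with F2 C samples closest to their own number in 1, 3 and 1 of 8. Calls over the whole array moved more, from 195 to 5 in GM and from 4 to 1 in kidney with slide as a random block, from 195 to 50 and from 4 to 0 with the replicate block, and from 27 to 9 in liver after scaling to the 75th percentile. The lower and the upper pig-number series alone gave 347 and 1080 calls in GM, 63 and 37 calls in liver, and 203 and 554 calls in kidney. With 1 pig left out these were 85 to 193, 13 to 40 and 4 to 6. Normexp on the median signal, normalization before log2 and leaving out the 2 dimmest kidney arrays were chosen after seeing the data. Normexp on mean signals and the authors' log2 signals were not run.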

Other observations

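Genes that neighbour the UCP2 and UCP3 pair were sparse on the array. The nearest with a named probe were KCNE3, a potassium channel subunit, 7 genes beyond UCP3, and P2RY2, a nucleotide receptor, 12 genes beyond UCP2. Beyond P2RY2 lay FOLR2 and FOLR1, the folate receptors, with 25 and 27 genes in between. The 4 FOLR1 probes had r of 0.36 to 0.75 with UCP2 in GM and 0.43 to 0.72 in liver over the 16 pigs, and -0.16 to 0.29 in kidney, and FOLR2 had 0.65, 0.59 and -0.030. With UCP3 the FOLR1 probes had r of -0.058 to 0.07 in GM, -0.11 to 0.24 in liver and -0.075 to 0.19 in kidney. Between the lines the FOLR1 probes differed by -0.44 to 0.27 in GM (limma adjusted p 0.275 to 0.918) and by -0.18 to 0.12 in kidney (adjusted p 1.00), without a common direction. FOLR2 differed by 0.39 in GM (adjusted p 0.231) and by -0.19 in kidney (adjusted p 1.00). Farther off on that side were HBE1, an embryonic globin, with r of 0.63 with UCP2 in liver, and LOC733579.

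On the UCP3 side RPS3, with 29 genes in between, was the only neighbour called between the lines among those tested in GM or kidney, with a GM difference of 0.74 (limma adjusted p 0.0211). In GM 0.761% of 25625 probes were called, line and slide cannot be told apart, and with slide as a random block 5 probes were called in place of 195. Among the named probes it was most like UCP3 in kidney with the lines as they are, but not among the 5 most like with line means subtracted. MYO7A, AQP11 and RSF1 followed with 63, 72 and 74 genes in between. AQP11, a water channel, differed by -0.83 in kidney (limma adjusted p 1.00) and had r = -0.41 with UCP3 there.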
